A study of Mus musculus with 6 samples.

Results

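The resident-type macrophage marker genes are 10 genes that tissue-resident macrophages are known to express: Cd5l, Timd4, Vsig4, Cd163, Stab1, Lyve1, Folr2, Sepp1, Gas6 and Cbr2. Their values were read in tumor-associated macrophages (TAMs) from melanomas that could or could not make prostaglandins through cyclooxygenases. They were found by an exact match of the gene symbol, and 10 of the 39179 genes in the count table matched. The list was chosen by hand with the measured values of these genes in the same libraries already known, so that their levels are a description here and carry no test. Sequencing of 3′ ends covered 3 pools of tumors with and 3 pools without Ptgs genes, whose macrophages are called Ptgs-competent and Ptgs-deficient TAMs after their tumors.

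Both groups were grown from the Braf V600E-driven melanoma line of the study, which was derived from C57BL/6 mice with an inducible Cre recombinase under the tyrosinase promoter and no functional p16INK4a. Ptgs-deficient cells had in addition lost Ptgs1 and Ptgs2, the genes of COX-1 and COX-2, by CRISPR/Cas9 editing, and Ptgs-competent cells kept both. Tumors were grown under the skin of C57BL/6 hosts that were 8 weeks old, and each library came from a pool of tumors. As only tumor cells were edited, the macrophages carried the genotype of the host, with functional Ptgs1 and Ptgs2, in either group. The sort took living leukocytes (CD45+) that were positive for F4/80 and CD11b, lacked Ly6G and NK1.1, and had no or dim Ly6C. The labels give no batch and do not say whether the pools were separate experiments, so that p-values measure the spread between these 6 pools.

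Macrophages reach a tissue either before birth, after which they renew locally, or from blood monocytes, and tumors can hold both kinds. Cells that have lived in a tissue for long tend to carry receptors for dead cells, hemoglobin, complement and hyaluronan, and to secrete factors that support clearance. The 10 genes belong to this equipment, yet none of them is restricted to a single origin, since monocyte-derived cells can acquire several of them.

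Library totals ranged from 4431184 to 8760679 counts and between 7794 and 10714 genes had a count. Of 13368 genes with a count in some library, 8793 passed the filter on low counts and were tested with edgeR's quasi-likelihood test. Calls needed a Benjamini-Hochberg adjusted p of at most 0.05 together with an absolute log2 fold change of at least 1.5. Levels are given as CPM, the usual unit of counts scaled to the library total, after TMM scaling, and fold changes as Ptgs-deficient over Ptgs-competent. The common biological coefficient of variation was 1.26, which is high, and Pearson correlations of log2 CPM between libraries ran from 0.407 to 0.720 across genes. Ptgs1 stood at 31.4, 65.2 and 100.2 CPM in TAMs from Ptgs-competent tumors and at 20.1, 28.2 and 42.6 CPM in TAMs from Ptgs-deficient tumors. Ptgs2 stood at 12.8, 53.0 and 100.2 against 10.0, 53.7 and 19.2 CPM, and neither gene checks the edit, which the macrophages do not carry.

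One library stood apart. The geometric mean of 10 pan-macrophage transcripts was 660.3, 529 and 201 CPM in Ptgs-competent replicates 1, 2 and 3, against 656, 621 and 746 CPM in the Ptgs-deficient replicates. In Ptgs-competent replicate 3, Csf1r, the receptor for the macrophage growth factor CSF1, was at 231 CPM and the lysosomal marker Cd68 at 26.5 CPM. The other 5 libraries held at least 797 CPM of Csf1r and 405 CPM of Cd68. The 10 transcripts did not fall alike in this library. Mertk at 89.9 CPM and Fcer1g at 764 CPM lay within the range of the other 5 libraries, and Tyrobp at 918 CPM just below it. Because of the low geometric mean of this library, fold changes are given for several members also without it. The 7 members with enough counts are also given as a ratio to pan-macrophage transcripts. In bulk RNA, fewer cells of a type and less RNA per cell cannot be told apart.

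Cd5l and Timd4 were the members closest to an on-off pattern. Cd5l (ENSMUSG00000015854; GRCm38 chromosome 3, 87357881 to 87371073, forward strand) encodes a secreted scavenger receptor cysteine-rich protein, also known as apoptosis inhibitor of macrophages. It had 1, 0 and 3 counts in Ptgs-competent TAMs and 974, 1257 and 1545 counts in Ptgs-deficient TAMs. The latter correspond to 178, 149.7 and 320 CPM. Set against the level that 3 counts per library would give, Ptgs-deficient TAMs held at least 400-fold more, and at least 445-fold more when Ptgs-competent replicate 3 was left out. Timd4 (ENSMUSG00000055546; chromosome 11, 46810800 to 46844332, forward strand) encodes TIM-4, a receptor that tethers phosphatidylserine on dying cells. No count was found in any Ptgs-competent library, and the Ptgs-deficient libraries had 253, 346 and 80 counts, or 46.2, 41.2 and 16.6 CPM. On the same floor, Ptgs-deficient TAMs held at least 64.3-fold more, and at least 71.4-fold more when Ptgs-competent replicate 3 was left out. A library with 0 counts still allows up to 3 counts, which is a level of 0.357 to 0.647 CPM depending on the library.

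The sequences in front of the start sites of these genes and of Stab1, the member with a negative fold change, are shown so that their motifs can be compared. Each is the 250 bases upstream of a RefSeq start site on GRCm38.p6, written 5′ to 3′ on the strand of the gene: chr3:87357631-87357880 (forward), chr11:46810549-46810798 (forward) and chr14:31168642-31168891 (reverse). Capitals mark matches, on either strand, to any of 10 motifs searched by their letters, with N for any base.
Cd5l: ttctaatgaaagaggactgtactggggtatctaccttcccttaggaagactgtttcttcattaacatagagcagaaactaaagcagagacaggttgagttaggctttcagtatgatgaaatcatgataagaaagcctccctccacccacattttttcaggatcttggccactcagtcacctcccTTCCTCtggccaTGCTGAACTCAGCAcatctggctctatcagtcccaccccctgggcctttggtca
Timd4: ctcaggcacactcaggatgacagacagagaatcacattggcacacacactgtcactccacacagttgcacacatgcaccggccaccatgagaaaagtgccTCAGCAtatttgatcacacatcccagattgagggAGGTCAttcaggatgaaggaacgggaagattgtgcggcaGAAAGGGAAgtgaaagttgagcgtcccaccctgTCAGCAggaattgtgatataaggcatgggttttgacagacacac
Stab1: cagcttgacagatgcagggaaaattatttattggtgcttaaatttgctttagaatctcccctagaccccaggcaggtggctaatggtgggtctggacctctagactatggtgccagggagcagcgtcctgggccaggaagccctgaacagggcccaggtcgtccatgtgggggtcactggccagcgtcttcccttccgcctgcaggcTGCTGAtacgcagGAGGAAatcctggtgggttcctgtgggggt

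The Cd5l sequence held the PU.1 core GAGGAA, read on the reverse strand, at -66 to -61. It was followed by the MAF half-site TGCTGA at -54 to -49 and by its reverse complement at -46 to -41. This mirrored pair with 2 bases between, looked for after the Cd5l sequence had been seen, occurred in 2 of the 32851 RefSeq windows that reach from 250 bases before to 50 bases after a start. The pair contains the half-site and thus overlaps with it by construction. Timd4 held the MAF half-site on the reverse strand at -150 to -145 and at -44 to -39, the LXR half-site AGGTCA at -116 to -111 and the interferon element GAAANNGAA at -77 to -69. Stab1 held the MAF half-site at -43 to -38 and the PU.1 core at -30 to -25, so that this member, with its negative fold change, shared both letter runs with Cd5l.

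RefSeq gave 12 windows for 9 members, some of them overlapping, and held no entry for Lyve1. The MAF half-site was found in 7 of these 12 windows, belonging to 6 genes, and in 19.5% of all windows. The PU.1 core was in 6 of 12 windows, belonging to 5 genes, and in 28.3% of all. The interferon element was in 4 of 12, belonging to 3 genes, and in 8.56% of all. Overlapping Sepp1 windows held the same PU.1 and interferon matches, which were counted in each. AP-1 (TGANTCA) and the LXR half-site were each in 1 of 12 windows, against 7.81% and 16.3% of all. No member window held the E-box CACGTG, C/EBP (TTGCNNAA), GAS (TTCNNNGAA), CREB (TGACGTCA) or NF-kB (GGGANTTTC) letters, which were found in 7.15%, 10.8%, 8.30%, 1.79% and 1.11% of all windows. Restricted to the 250 bases upstream, the MAF half-site was in 5 of 12 and in 16.1% of all. A match is a run of letters and not a bound site.

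Vsig4 (ENSMUSG00000044206; chromosome X, 96247203 to 96293438, reverse strand) encodes CRIg, a complement receptor that binds C3b and iC3b on particles. It had 34 counts, or 7.04 CPM, in Ptgs-deficient replicate 3 and none in the other 5 libraries. It did not pass the filter and no fold is given, so that this member adds a single library to the list.

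Among the scavenger receptors, the levels of Cd163 did not overlap between groups and those of Stab1 did, and neither gene was called by the quasi-likelihood test. Cd163 (ENSMUSG00000008845; chromosome 6, 124304656 to 124330527, forward strand) takes up complexes of hemoglobin and haptoglobin. Its level was 147, 188 and 59.1 CPM in Ptgs-competent TAMs and 415, 305 and 348 CPM in Ptgs-deficient TAMs. The groups did not overlap, and the lowest Ptgs-deficient library was 1.63-fold above the highest Ptgs-competent one. The means were 131 ± 65.7 and 356 ± 55.3 CPM (SD, n = 3 each), a 2.71-fold ratio that became 2.13-fold without Ptgs-competent replicate 3. Its fitted log2 fold change of 1.44 (SE 0.45) was the smallest of the 8 positive ones.

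Stab1 (ENSMUSG00000042286; chromosome 14, 31139013 to 31168641, reverse strand) encodes stabilin-1, an endocytic receptor for modified lipoproteins and for phosphatidylserine. Its levels were 282, 339 and 200.3 CPM in Ptgs-competent TAMs against 129.6, 163 and 227 CPM in Ptgs-deficient TAMs. The groups overlapped, because the lowest Ptgs-competent library was replicate 3 and the highest Ptgs-deficient library lay above it. The fitted log2 fold change was -0.66 (SE 0.38), the one negative value among the members, and it was -0.79 without Ptgs-competent replicate 3. Nt5dc2, a gene on the opposite strand that overlaps Stab1, had between 181 and 389 counts in Ptgs-competent and between 104 and 395 in Ptgs-deficient TAMs. Whether reads were counted by strand is not given in the sources used here.

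Lyve1 (ENSMUSG00000030787; chromosome 7, 110850607 to 110863239, reverse strand) encodes a hyaluronan receptor shared by lymphatic endothelium and by macrophages that lie along vessels. Its level was 6.38, 23.8 and 14.7 CPM in Ptgs-competent TAMs and 91.6, 400.0 and 137 CPM in Ptgs-deficient TAMs. Every Ptgs-deficient library was above every Ptgs-competent one, by 3.85-fold at the nearest pair. The spread inside the Ptgs-deficient group was wide, as replicate 2 held 63.6% of the summed CPM of that group. The ratio of means was 14.0-fold, and the fitted log2 fold change was 3.81 (SE 0.75), or 2.94 without Ptgs-deficient replicate 2 and 3.86 without Ptgs-competent replicate 3. Flt4 and Prox1, which define lymphatic endothelium, were at 0 counts in all 6 libraries. Other endothelial markers were detected in all 6: Pdpn, also a lymphatic marker, was at 141, 108 and 31.5 against 15.1, 47.5 and 35.4 CPM, and the adhesion molecule Pecam1 at 88.0, 197 and 92.9 against 65.1, 15.4 and 35.8 CPM. Their part in the Lyve1 values was not tested.

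Folr2 (ENSMUSG00000032725; chromosome 7, 101839988 to 101857194, reverse strand) encodes folate receptor beta. Its level was 26.3, 164 and 42.5 CPM in Ptgs-competent TAMs and 261, 531 and 504 CPM in Ptgs-deficient TAMs. The groups did not overlap, but Ptgs-competent replicate 2 was 6.23-fold above the lowest library of its group and came within 1.59-fold of the lowest Ptgs-deficient library. Without that library, the fitted log2 fold change moved from 2.48 (SE 0.66) to 3.66. The ratio of means was 5.57-fold, and 4.54-fold without Ptgs-competent replicate 3.

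Of the secreted members Sepp1 and Gas6, Sepp1 separated the groups more widely. Sepp1 (ENSMUSG00000064373, now named Selenop; chromosome 15, 3268547 to 3280508, forward strand) encodes selenoprotein P, which carries selenium between cells. Its level was 521, 270.2 and 251 CPM in Ptgs-competent TAMs and 1883, 2180.4 and 2837 CPM in Ptgs-deficient TAMs. The lowest Ptgs-deficient library was 3.61-fold above the highest Ptgs-competent one, and the fitted log2 fold change of 2.73 had an SE of 0.38. The ratio of means was 6.62-fold, or 5.82-fold without Ptgs-competent replicate 3. Gas6 (ENSMUSG00000031451; chromosome 8, 13465374 to 13494490, reverse strand) encodes the ligand that bridges phosphatidylserine to the receptor kinases Tyro3, Axl and Mertk. Its level was 439, 830.0 and 311 CPM against 1233, 2129 and 1755 CPM, again without overlap and with 1.49-fold between the nearest pair of libraries. The ratio of means was 3.24-fold, and 2.69-fold without Ptgs-competent replicate 3, with a fitted log2 fold change of 1.69 (SE 0.41). The genes on the opposite strand that overlap Sepp1 and Gas6, Ccdc152 and Tmem255b, had 0 counts in each library.

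Cbr2 (ENSMUSG00000025150; chromosome 11, 120729489 to 120732114, reverse strand) encodes carbonyl reductase 2, an enzyme that reduces carbonyl groups with NADPH. Its level was 23.3, 121 and 156 CPM in Ptgs-competent TAMs and 375, 460.1 and 325 CPM in Ptgs-deficient TAMs. The groups did not overlap, and the ratio of means was 3.85-fold. Unlike for Cd163, Lyve1, Folr2, Sepp1 and Gas6, leaving out Ptgs-competent replicate 3 raised this ratio, to 5.35-fold, because that library was the highest of its group.

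**Figure D1:**
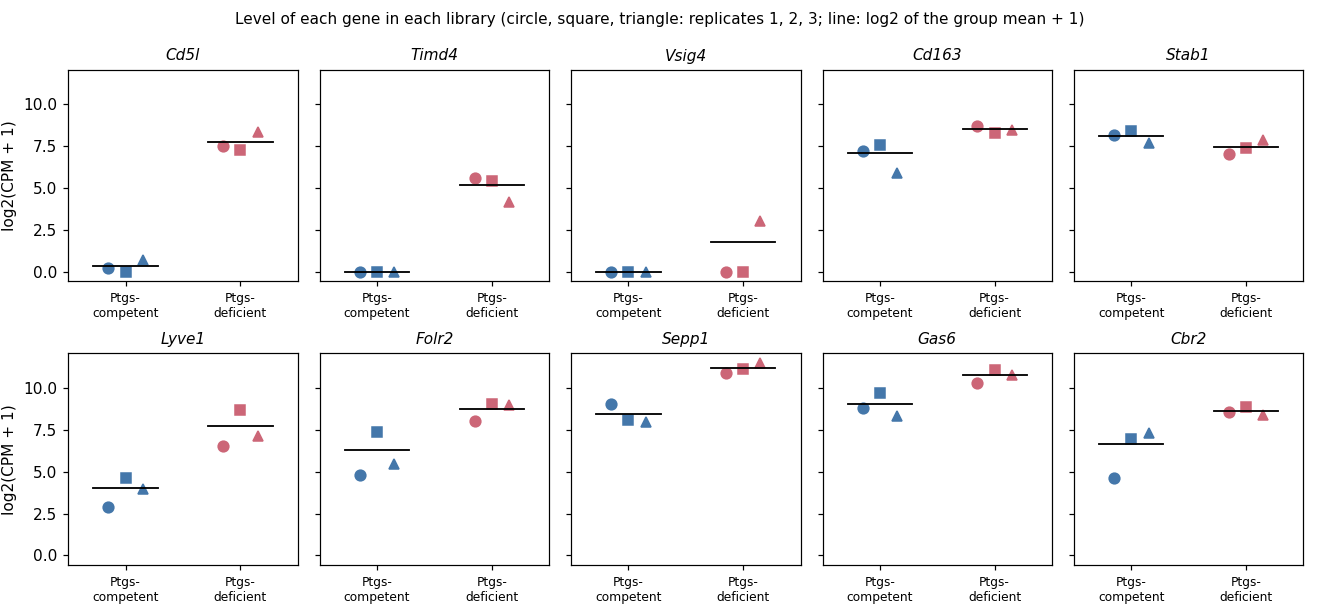
Levels of the 10 resident-type macrophage marker genes as log2(CPM + 1) on the vertical axis, with Ptgs-competent libraries in blue and Ptgs-deficient libraries in red; symbols stand for replicates 1 to 3 and lines for log2 of the group mean plus 1. In 8 of 10 panels the red symbols lie above all blue ones, Stab1 overlaps, and Vsig4 has a value in 1 library.

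In all, 9 of the 10 members passed the filter, 8 with a positive and 1 with a negative fitted log2 fold change. The median over these 9 was 2.48, against 0.018 over all genes tested. The quasi-likelihood test called 2 of them, Cd5l and Sepp1, where it called 0.216% of all genes tested in either direction and 0.159% as higher. Both calls were lost without Ptgs-competent replicate 1, without Ptgs-deficient replicate 1 or without Ptgs-deficient replicate 3. Cd5l alone was called without replicate 2 of either group, so that both calls held for 1 of the 6 libraries left out, Ptgs-competent replicate 3. The likelihood ratio test of edgeR, which does not carry the uncertainty of each dispersion, called 6 members higher (Cd5l, Timd4, Lyve1, Folr2, Sepp1 and Gas6) beside 1.55% of all genes, and DESeq2 called the same 6 beside 1.97%. The groups did not overlap for 8 members, all higher in the Ptgs-deficient group, whereas 11% of all genes tested were higher and 8.01% were lower without overlap. Since the members were chosen on this contrast, nothing is read from these counts.

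Levels were also expressed per pan-macrophage transcript, a scaling chosen after the low level of these transcripts in Ptgs-competent replicate 3 had been seen. Of 7 members with enough counts for such a ratio, 5 were higher in the Ptgs-deficient group without overlap: Cd163, Lyve1, Folr2, Sepp1 and Gas6. Their log2 ratios of means were 0.87, 2.92, 1.78, 2.0 and 1.02. Cbr2 overlapped between groups on this scale (log2 ratio 0.75), as Ptgs-competent replicate 3 reached 0.777 of the pan-macrophage mean and the Ptgs-deficient libraries 0.572, 0.741 and 0.436. Stab1 was lower without overlap, at 0.427, 0.641 and 0.994 in Ptgs-competent and 0.197, 0.263 and 0.305 in Ptgs-deficient TAMs, a log2 ratio of -1.43. On this scale, 5.98% of all genes tested were higher and 13.4% were lower in the Ptgs-deficient group without overlap.

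**Figure D2:**
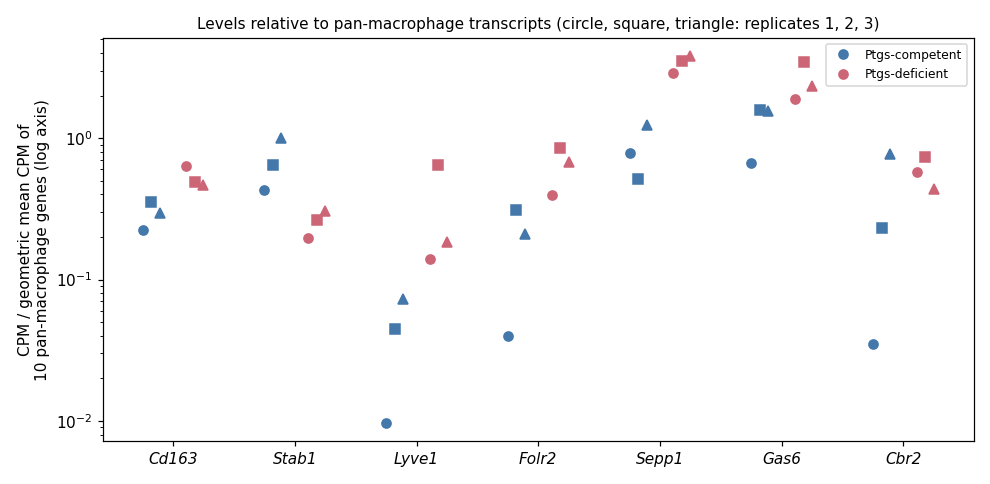
CPM of 7 members divided by the geometric mean CPM of 10 pan-macrophage genes in the same library (log axis), with Ptgs-competent libraries in blue, Ptgs-deficient libraries in red and symbols for replicates 1 to 3. Stab1 lies lower in the Ptgs-deficient group without overlap, Cbr2 overlaps, and the other 5 genes lie higher without overlap.

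The members' levels ran together over the 6 libraries, and their deviations within groups went in mixed directions. Over the 6 libraries, the log2 CPM of the 8 tested members other than Stab1 gave 28 pairs, with Pearson's r from 0.526 (Cd163 and Cbr2) to 0.972 (Cd5l and Timd4) and a median of 0.842. All 28 were positive, and without Ptgs-competent replicate 3 the median was 0.873. These correlations hold the group difference by which the genes were known when the list was made, and the points share library and depth. When each value was taken as its deviation from the mean of its own group, 15 of 28 pairs were positive and the median r was 0.047, in a range of -0.918 (Sepp1 and Cbr2) to 0.841 (Folr2 and Gas6). Without Ptgs-competent replicate 3, 12 of 28 were positive and the median was -0.171. Cd5l and Timd4, at 3 counts or fewer in each Ptgs-competent library, carry almost no within-group information in that group. Among the 15 pairs of the 6 members above this floor in both groups, a choice made after the values were seen, 10 were positive within groups, with a median r of 0.298. Stab1 had a negative r with each of the other 8 over the 6 libraries, from -0.776 to -0.378, yet 5 of its 8 pairs were positive within groups, as were 5 of the 6 pairs with members above the floor.

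Different libraries were highest for different members. Lyve1, Folr2 and Gas6 were each highest in replicate 2 of either group. The strongest positive pairs of deviations were Folr2 and Gas6 (0.841), Lyve1 and Folr2 (0.769), Stab1 and Gas6 (0.762), Lyve1 and Cbr2 (0.659), Lyve1 and Gas6 (0.632) and Cd163 and Gas6 (0.628), so that Stab1, with its negative fold change, was among them. Replicates of the groups are not paired, so that the shared number has no meaning. Cd5l and Sepp1 were instead highest in Ptgs-deficient replicate 3, and Timd4 and Cd163 in Ptgs-deficient replicate 1. No single Ptgs-deficient library carried the high values: replicates 1, 2 and 3 were highest for 2, 4 and 3 of the 9 members. These values rest on 6 libraries and are descriptions.

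**Figure D3:**
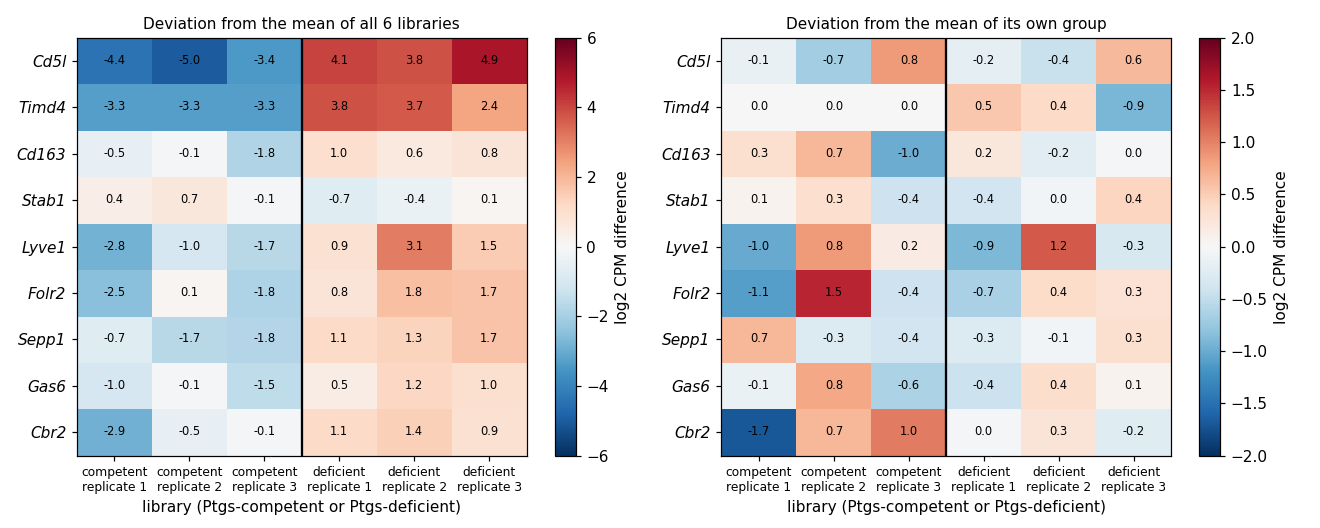
Heat maps of log2 CPM for the 9 tested members (rows) in the 6 libraries (columns), as the difference from the mean of all libraries (left, scale to 6) and from the mean of the library's own group (right, scale to 2). Left, 8 rows turn from blue or near white to red between the groups and Stab1 does not; right, the highest library differs from row to row, and the Ptgs-competent values of Cd5l and Timd4 rest on 3 counts or fewer.

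The 6 genes outside the list whose log2 CPM was most like the mean profile of the 9 tested members, among 2977 genes with a mean of at least 50 CPM, were C4b, Zbp1, Clec10a, Plac8, H2-K1 and Klf2. Pearson's r over the 6 libraries was 0.997, 0.990, 0.989, 0.986, 0.985 and 0.984. The mean profile is mainly the group difference by which the members were known. A high r thus marks a gene with a similar group difference and nothing more is read from it. C4b, a complement component, was at 11.2, 27.2 and 15.3 CPM in Ptgs-competent TAMs and 251, 319 and 376 CPM in Ptgs-deficient TAMs. The nucleic acid sensor Zbp1 was at 63.9, 74.0 and 53.0 against 189, 234 and 198 CPM. H2-K1, a classical MHC class I gene with close paralogs, was at 947, 926 and 808 against 2429.5, 3107 and 3165 CPM.

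Other genes known from tissue macrophages were taken as a list of 35, of which 33 passed the filter. In 29 the fitted fold change was positive and in 4 negative, their median log2 fold change was 1.75, and 2 were called, both higher. Clec10a, a galactose-type lectin, rose from 72.4, 119 and 142 CPM to 1154, 1932 and 2012 CPM (edgeR quasi-likelihood adjusted p = 0.00453). Cd209g, a C-type lectin of the DC-SIGN family, had 0.159 CPM in 1 Ptgs-competent library and none in the others, and rose to 73.0, 78.1 and 81.9 CPM (edgeR quasi-likelihood adjusted p = 0.0351). Siglec1, the sialic acid receptor CD169, had 1, 0 and 0 counts against 367, 411 and 381 counts and did not pass (edgeR quasi-likelihood adjusted p = 0.0693). Pltp, a phospholipid transfer protein, was at 170.1, 193 and 58.2 against 712, 697 and 939 CPM (edgeR quasi-likelihood adjusted p = 0.0762). Both calls were lost without Ptgs-competent replicate 1, and the list held 1 call without each single Ptgs-deficient library and 4 calls without Ptgs-competent replicate 3.

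Genes of monocytes and inflammatory macrophages did not share one direction. Of 31 listed, 29 were tested, 13 with a positive and 16 with a negative value and a median of -0.15. Plac8 and Fn1, which are high in monocytes, were called higher, from 56.9, 109 and 112 to 598, 1183 and 769 CPM (Plac8, edgeR quasi-likelihood adjusted p = 0.0230) and from 166, 122 and 86.6 to 722, 609 and 604 CPM (Fn1, edgeR quasi-likelihood adjusted p = 0.0350). Clec4d, an inflammatory C-type lectin, was called lower, from 842, 384 and 634 to 106, 135 and 99.9 CPM (edgeR quasi-likelihood adjusted p = 0.0414). Fabp5, a fatty acid binding protein, was at 1091, 1148 and 504 against 315, 160.3 and 315 CPM and was not called (edgeR quasi-likelihood adjusted p = 0.158). The list held 2 calls without Ptgs-competent replicate 3 and 1 without Ptgs-competent replicate 2, and its calls were lost without Ptgs-competent replicate 1 or without any one of the Ptgs-deficient libraries.

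Transcription factors of the macrophage lineage and of resident programs gave no call by the quasi-likelihood test among 24 tested of 28 listed, although 5 had an unadjusted p under 0.05 and the likelihood ratio test and DESeq2 called 3 each. The values were positive in 17 and negative in 7, with a median of 0.68. Klf2 was at 64.1, 148 and 109 CPM against 500.1, 542 and 487 CPM (log2 fold change 2.25, edgeR quasi-likelihood adjusted p = 0.0622). Klf4 was at 249, 319 and 164 against 1092, 918 and 710.0 CPM (log2 fold change 1.89, edgeR quasi-likelihood adjusted p = 0.0773), and Nr4a1, an orphan nuclear receptor, at 309, 131 and 154 against 806, 659 and 701 CPM (log2 fold change 1.87, edgeR quasi-likelihood adjusted p = 0.107). Cebpb had a log2 fold change of 2.28 (edgeR quasi-likelihood adjusted p = 0.306). The fifth with an unadjusted p under 0.05, Nr1h3, which encodes LXR-alpha, was lower without overlap, at 184, 122 and 125 against 50.7, 25.1 and 66.6 CPM (log2 fold change -1.60, edgeR quasi-likelihood adjusted p = 0.369). Maf and Spi1, which encodes PU.1, are named here because their motif letters were described above. The log2 fold change of Maf was -0.07 (SE 0.39) and that of Spi1 was -0.72 (SE 0.44). Gata6, the factor of peritoneal macrophages, was at 0 counts in all 6 libraries, and Spic, the factor of red pulp macrophages, had 3, 53 and 0 counts against 189, 0 and 0.

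Partners of the members were read from lists of their pathways. Among genes for recognition of phosphatidylserine and receptors of GAS6, 20 of 28 were tested, 10 positive and 10 negative, with a median of 0.12. None was called by edgeR's quasi-likelihood test, the likelihood ratio test or DESeq2, and 2 had an unadjusted p under 0.05. Timd4 and Gas6 were higher in the Ptgs-deficient group without overlap but were not called by the quasi-likelihood test. Mertk was at 101, 107 and 89.9 against 94.3, 84.1 and 101 CPM, and Axl at 105, 40.2 and 354 against 159.7, 41.7 and 86.7 CPM. Tyro3 had counts in 1 library. The smallest p in the list belonged to Tgm2, a transglutaminase that aids engulfment (log2 fold change -1.31), Pros1, the other ligand of these kinases (3.70), Itgb3, an integrin chain of the vitronectin receptor (-3.60), and Cd300lb (1.96), with edgeR quasi-likelihood adjusted p of 0.375, 0.515, 0.652 and 0.682.

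For Sepp1, 19 of 31 selenoprotein and selenium handling genes were tested, 12 positive and 7 negative, with a median of 0.42. None was called by any of the 3 tests, and 1, Gpx1, had an unadjusted p under 0.05. This glutathione peroxidase was at 1105, 861 and 726 CPM against 1522, 2039 and 2405 CPM, without overlap (log2 fold change 1.15, edgeR quasi-likelihood adjusted p = 0.230). Lrp8, a receptor for selenoprotein P, had 119, 0 and 289 counts against 0, 129 and 0.

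For Cd163, 22 of 25 genes of hemoglobin and iron handling were tested, 15 positive and 7 negative, with a median of 0.42. The quasi-likelihood test called none, with 4 at an unadjusted p under 0.05, and the likelihood ratio test and DESeq2 called 1 each. Hmox1, the heme oxygenase that acts on heme taken up through this receptor, ran opposite to Cd163. It was at 2045, 3403 and 1453 CPM in Ptgs-competent and 561, 995 and 558 CPM in Ptgs-deficient TAMs, without overlap (log2 fold change -1.71, edgeR quasi-likelihood adjusted p = 0.158). Ftl1, the ferritin light chain, and Slc11a1, an iron transporter of phagosomes, had log2 fold changes of 1.36 and 1.22, and the heme transporter Slc48a1 had -0.88. Their edgeR quasi-likelihood adjusted p were 0.346, 0.379 and 0.463.

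For Folr2, 14 of 22 genes of folate uptake and one-carbon metabolism were tested, 8 positive and 6 negative, with a median of 0.53. None was called by any of the 3 tests, and 0 had an unadjusted p under 0.05. The other folate receptor gene, Folr1, was at 0 counts in all 6 libraries, and the proton-coupled folate transporter Slc46a1 did not pass the filter. For Vsig4, 11 of 19 genes of complement C3 and its receptors were tested, 8 positive and 3 negative, with a median of 0.56, none called by any of the 3 tests and 2 at an unadjusted p under 0.05. Itgam and Itgax, the alpha chains of the iC3b receptors CR3 and CR4, had log2 fold changes of 1.16 (edgeR quasi-likelihood adjusted p = 0.261) and -1.36 (edgeR quasi-likelihood adjusted p = 0.406). C3 itself was at 56.6, 88.5 and 42.7 against 16.4, 8.22 and 70.6 CPM. For Lyve1, 7 of 14 hyaluronan receptors and enzymes were tested, 5 positive and 2 negative, with a median of 0.52. None was called by any of the 3 tests and 0 had an unadjusted p under 0.05, and the main hyaluronan receptor Cd44 was at 269, 312 and 521 CPM against 218, 225 and 191 CPM (log2 fold change -0.80, edgeR quasi-likelihood adjusted p = 0.571).

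**Figure D4:**
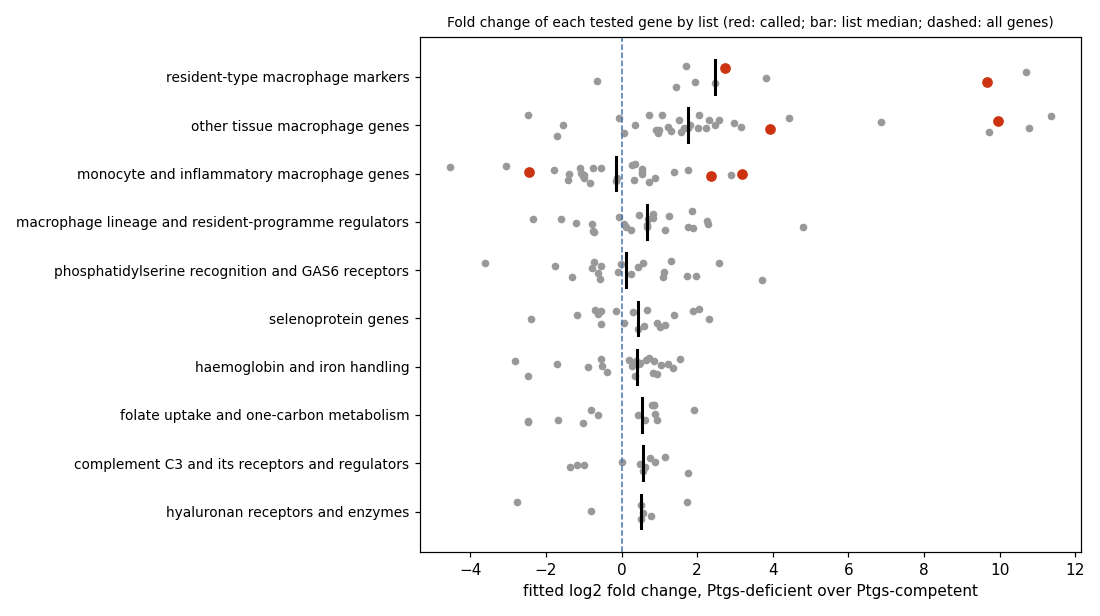
Fitted log2 fold change (horizontal axis) of each tested gene of the resident-type markers and of 9 other lists, with called genes in red, a black bar at the median of each list and a dashed line at the median of all genes tested (0.018). The medians are 2.48 for the resident-type markers, 1.75 for other tissue macrophage genes and between -0.15 and 0.68 for the other 8 lists.

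Several markers that define resident macrophages of single organs were not detected. Clec4f, Clec1b and Cdh5 of Kupffer cells, Gata6, Prg4 and Cxcl13 of peritoneal macrophages, Itgad of red pulp macrophages and Sall1 of microglia were at 0 counts in each of the 6 libraries. Without the members, the summed level of the Kupffer cell list was 167 to 247 CPM in Ptgs-competent and 147 to 218 CPM in Ptgs-deficient TAMs. That of the peritoneal list was 2.55 to 8.84 against 11.8 to 34.8 CPM, and that of the red pulp list, carried by Hmox1, 1577 to 3493 against 582 to 1046 CPM. The label of the members thus describes genes, and no organ's resident macrophage is named from it.

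Markers of other cells moved with the groups. Summed levels were higher in Ptgs-competent TAMs for melanoma (284 to 1137 against 75.2 to 114 CPM, 9 of 17 markers at 0), endothelial (262 to 468 against 83.6 to 118 CPM, 10 of 19 at 0, Cdh5, Tek and Tie1 among them), fibroblast (157 to 349 against 27.3 to 51.2 CPM, 2 of 12 at 0), neutrophil (1173 to 2379.5 against 506 to 629 CPM, Ly6g at 0) and erythroid lists (225 to 698 against 18.2 to 125 CPM, 2 of 6 at 0). The melanoma marker with the highest mean was Sparc, a matrix protein gene that is also on the microglia list, at 179.8, 126 and 600.3 against 22.6, 17.6 and 36.8 CPM. Sdpr (59, 508 and 624 against 0, 2 and 0 counts), Fermt2 (42, 639 and 786 against 0, 1 and 0 counts) and Prkg2 (247, 195 and 473 against 0, 0 and 0 counts) followed the sum. The pigment cell markers Mlana, Pmel, Tyr, Dct and Sox10 were at 0 counts in all 6 libraries, and Mitf went the other way without overlap (1.91, 0 and 0.647 against 10.6, 44.3 and 18.2 CPM). The neutrophil marker with the widest gap was Mmp9, a protease that macrophages can also make, at 1288, 1489 and 478 against 10.4, 18.5 and 11.6 CPM, the 1 gene of that list that was called (lower, edgeR quasi-likelihood test). S100a8 (258, 309.7 and 294 against 218, 120.2 and 72.4 CPM) and S100a9 (199, 199 and 271 against 141, 132 and 126 CPM) were also higher in the Ptgs-competent group without overlap, while Retnlg went the other way without overlap (20.2, 59.9 and 16.2 against 123, 114 and 180.2 CPM). Summed levels were higher in Ptgs-deficient TAMs for NK and T cells (1.91 to 2.46 against 17.0 to 33.5 CPM, 9 of 16 at 0, Ncr1 and Cd3e among them). Most of the sum in Ptgs-deficient TAMs came from Klrk1 (0, 0 and 0 against 26.3, 4.29 and 16.1 CPM) and Gzma (1.12, 1.64 and 1.29 against 5.29, 20.4 and 0.207 CPM). Of these 16 markers, 11 were at 3 counts or fewer in every library. Dendritic cell and B cell sums overlapped between groups, at 183 to 358 against 140.3 to 241 CPM and at 0 to 26.8 against 15.0 to 106 CPM. Within the dendritic cell list, Batf3, a transcription factor of cross-presenting dendritic cells, was at 0, 0 and 0.216 against 107, 75.5 and 87.7 CPM, the list's 1 call (higher, same test), and the integrin gene Itgax at 344, 167 and 140.3 against 134, 56.4 and 62.7 CPM. Leaving out replicate 1 of either group ended the Mmp9 call, and leaving out any 1 library other than Ptgs-competent replicate 3 ended the Batf3 call. The part of these transcripts in the members' values was not tested. Gas6 can also be made by endothelial cells and fibroblasts, and Stab1 by endothelial cells, whose summed markers were higher in the Ptgs-competent group. The sort took cells positive for CD45, CD11b and F4/80, and the summed endothelial and fibroblast markers were above 0 in all 6 libraries.

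**Figure D5:**
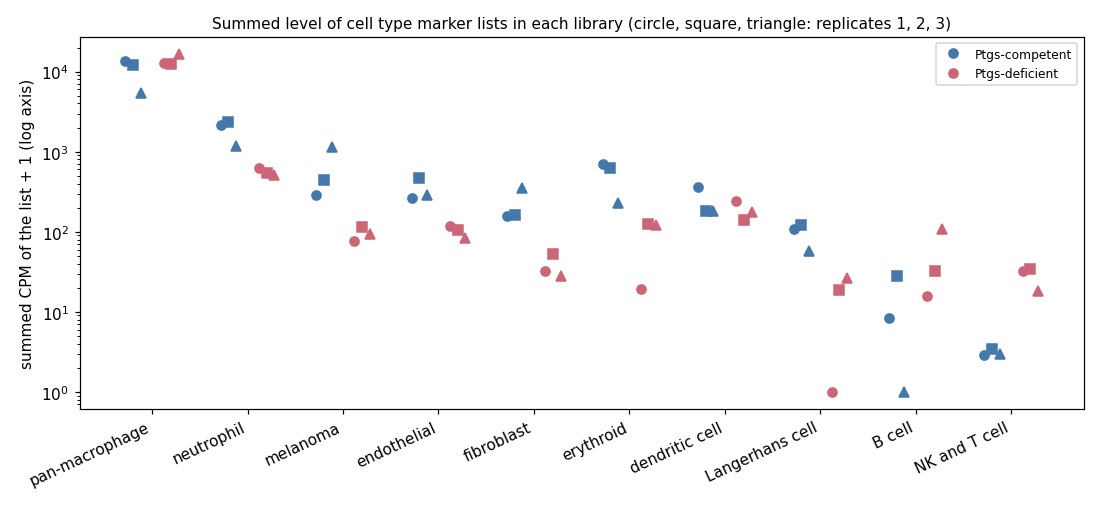
Summed CPM (plus 1, log axis) of 10 cell type marker lists in each library, Ptgs-competent in blue and Ptgs-deficient in red, with symbols for replicates 1 to 3. Ptgs-competent replicate 3 (blue triangle) has the lowest pan-macrophage sum (5433 CPM, against at least 12062 in the other 5 libraries) and the highest melanoma sum (1137 CPM).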

How the data were processed

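TAM RNA of 6 libraries was read by 3′-end sequencing (QuantSeq FWD), without stated molecular identifiers. The authors deposited raw counts per gene, not normalized, made by trimming with BBDUK, fqtrim and cutadapt, alignment with STAR to GRCm38 and counting with featureCounts on Ensembl genes; tool versions are not given in the sources used here. Counts do not scale with transcript length, and intervals and floors cover counting error only. Library totals were 4431184 to 8760679.

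The analysis used edgeR 4.0.16 under R 4.3.3: filterByExpr (minimum count 10, total 15), TMM, the two-sided quasi-likelihood test and Benjamini-Hochberg adjustment over 8793 genes. The script was tested on simulated data. Deposited sample titles set the groups. The members and lists were chosen with earlier results of these data known, and 414 of 415 list entries matched a gene. Named were the members, called genes and the 4 smallest p of each list, 6 most alike genes, member partners, Ptgs1 and Ptgs2; others were chosen after their values were seen. Fold changes against groups with at most 3 counts per library are lower bounds. Log2 CPM used a prior count of 2. Alternatives were the edgeR likelihood ratio test, DESeq2 1.42.0, limma 3.58.1 (voom), other scalings, filters, a replicate block and leaving out each library. Positions are from GENCODE M21 on GRCm38, and start-site windows from RefSeq on GRCm38.p6. Protein sequences were not used here.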

Additional observations from a re-analysis of the deposited data

How the results depend on the processing

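Over the whole table, 19 of 8793 genes tested were called. This became 241 of 8793 with the edgeR likelihood ratio test, 328 of 8793 with DESeq2 and 96 of 8793 with limma voom. It became 252 of 13368 with no filter and 133 of 4274 with at least 10 counts in all libraries. When single libraries were left out, 0 to 25 genes were called, with 9444 to 9902 tested. Other tissue macrophage genes went from 2 calls to 14, 14, 11, 15 and 8 under these settings in the same order (0 to 4 without single libraries), monocyte and inflammatory genes from 3 to 5, 5, 5, 6 and 5 (0 to 2), lineage regulators from 0 to 3, 3, 3, 4 and 3, and iron handling from 0 to 1 in each. With no filter, 1 gene of phosphatidylserine recognition was called. Calls of members went from 2 of 9 to 6 of 9, 6 of 9, 5 of 9, 7 of 10 and 4 of 7, and 0 to 2 of 9 without single libraries. They stand beside the calls over all genes given first, and nothing is read from them, since the members were chosen on this contrast. The members' median log2 fold change was 1.91 with at least 10 counts in all libraries, where 7 members remained, and 2.07 to 2.78 without single libraries. Members kept their sign under each alternative run. Sizes moved beyond the spread between replicates for Timd4 (10.69; 10.00 with DESeq2, 8.61 with limma voom), whose Ptgs-competent libraries were at 0 so that the fitted size is no bound, for Cd5l (9.66; 11.10 without Ptgs-competent replicate 3), for which the same holds at 3 counts or fewer, for Folr2 (2.48; 3.66 without Ptgs-competent replicate 2), and per pan-macrophage transcript for Cbr2 (1.95 to 0.75), Stab1 (-0.66 to -1.43), Sepp1 (2.73 to 2.0) and Gas6 (1.69 to 1.02). The cause was not tested.

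Replicate numbers do not pair the samples: deviations of same-numbered libraries correlated at -0.049, -0.022 and -0.022. With a replicate block, 77 of 8793 genes tested were called, with 8 other tissue macrophage genes, 3 regulators, 1 iron gene and 5 members among them. With totals of 4431184 to 8760679 counts, a gene at 0 counts in a library may still have a level of up to 0.357 to 0.647 CPM (3 counts).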

Other observations

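Values of other macrophage transcripts that differed between libraries or groups are given here, chosen after they were seen. Cd207, which encodes langerin, had 529, 560 and 0 counts in Ptgs-competent TAMs and 0, 7 and 0 in Ptgs-deficient TAMs. Marco, a scavenger receptor, had 239 counts in Ptgs-deficient replicate 1 and none elsewhere. The chemokine Ccl24 was not detected in any Ptgs-competent library and stood at 40.9, 40.8 and 82.8 CPM in Ptgs-deficient TAMs. Cd38, an NAD-consuming ectoenzyme, showed the same pattern with 45.3, 28.6 and 37.2 CPM. Igf1, a growth factor, was at 18.2, 1.81 and 0.431 CPM in Ptgs-competent TAMs and at 193, 126 and 128 CPM in Ptgs-deficient TAMs. Running the other way, Pf4, a chemokine that many tissue macrophages make, was at 10851, 9159 and 5486 CPM against 2868, 2612 and 3247 CPM, without overlap. Igf1, Ccl24, Cd38 and Pf4 were not called by the edgeR quasi-likelihood test.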
